A study of Mus musculus with 6 samples.

Results

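Pyruvate dehydrogenase (PDH) and the enzymes that switch it on and off were followed in the heart ventricles of western diet (WD)-fed mice. The set holds 10 genes, taken as a list of symbols and matched to Ensembl identifiers through GENCODE M21, out of 54232 genes in the count files. It covers 4 subunits of the complex (Pdha1, Pdhb, Dlat and Pdhx), 4 kinases (Pdk1, Pdk2, Pdk3 and Pdk4) and 2 phosphatases (Pdp1 and Pdp2). All 10 were measured and passed the filter on low counts, which kept 14133 genes.

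PDH sits in the mitochondrial matrix and turns pyruvate from glycolysis into acetyl-CoA, so it sets how much carbohydrate carbon enters the citric acid cycle. The PDH kinases phosphorylate the E1 alpha subunit and inactivate the complex, and the PDH phosphatases remove the phosphate and restore activity. In heart muscle, Pdk4 is known as the kinase gene that is switched on by fasting, fatty acids and glucocorticoids, when the heart burns mostly fat.

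The WD + Tributyrin group held 3 mice and the WD + Vehicle group held 3 mice, all wild type C57BL/6J. All 6 mice ate WD for 15 weeks, and the treated mice were then needle-fed with Tributyrin, a glycerol ester that releases butyrate, at 5 g/kg for 3 weeks, with 2 days on and 2 days off. Controls received vehicle, which the labels name PBS, so the groups differ by treatment alone as far as the labels say. RNA was measured by stranded mRNA sequencing, with 1 library per mouse. The question was whether the transcripts that set PDH activity changed with Tributyrin on a continued fat-rich diet, with Pdk4 set beside the other kinases.

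Library totals ranged from 20369746 to 32734485 counts, and transcripts of the mitochondrial genome took between 23.6% and 28.8% of each library. Vehicle mice 1 and 2 stood apart in the atrial cardiomyocyte markers Sln, Myl4, Myl7 and Mybphl. Myl4, for example, had 1975 and 2247 normalized counts there, 246 in vehicle mouse 3 and 251 to 709 with Tributyrin. Nppa, also on the atrial list, did not follow, with 554 and 485 there, 1046 in vehicle mouse 3 and 295 to 731 with Tributyrin. Bmp10 had 0 to 1 counts. The summed level of the list was 182 and 179 CPM (counts scaled to the library total) in vehicle mice 1 and 2. It was 55.9 in vehicle mouse 3 and 30.4 to 64.3 in the Tributyrin treated mice. The ventricular marker list was high in every library, at 53138 to 59947 CPM. All 6 libraries held transcripts of Ddx3y, a gene of the Y chromosome, at 1802 to 2241 normalized counts. With edgeR, 0 of the 14133 genes passed an FDR of 10% (0.0% called, smallest adjusted p 0.999), 600 had an unadjusted p under 0.05, and DESeq2 called 11 genes at an FDR of 10%, none of them among the 10 PDH genes.

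None of the 10 PDH genes differed between Tributyrin and vehicle treated mice at an FDR of 10% in edgeR, DESeq2 or limma-voom. With edgeR, 0 of the 10 had an unadjusted p under 0.05, where 4.25% of all genes tested did (1.97% higher and 2.28% lower with Tributyrin). For 0 of the 10 did the groups separate without overlap, where 8.91% of all genes tested did (4.26% higher and 4.65% lower). The median log2 fold change over the 10 genes was 0.02, beside −0.0013 over all genes tested, with 9 of the 10 above 0 where 49.6% of all genes were. Some of these lay close to 0, such as Pdhb at 0.0020 (SE 0.070) and Pdp1 at 0.0024 (SE 0.116). With library size alone, which moves the median of all genes to −0.07, 2 of the 10 were above 0 where 27.5% of all genes were. Relative to the median gene, 9 of the 10 were higher under that scaling. This count is no separate support, since the change of scaling lowered the median gene and the 10 genes by similar amounts. Pdhb (−0.0723) and Pdp1 (−0.0680) lay just above that median, which was −0.0736. The samples are pieces of whole tissue, in which fewer cells of a type and less RNA per cell cannot be told apart.

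**Figure D1:**
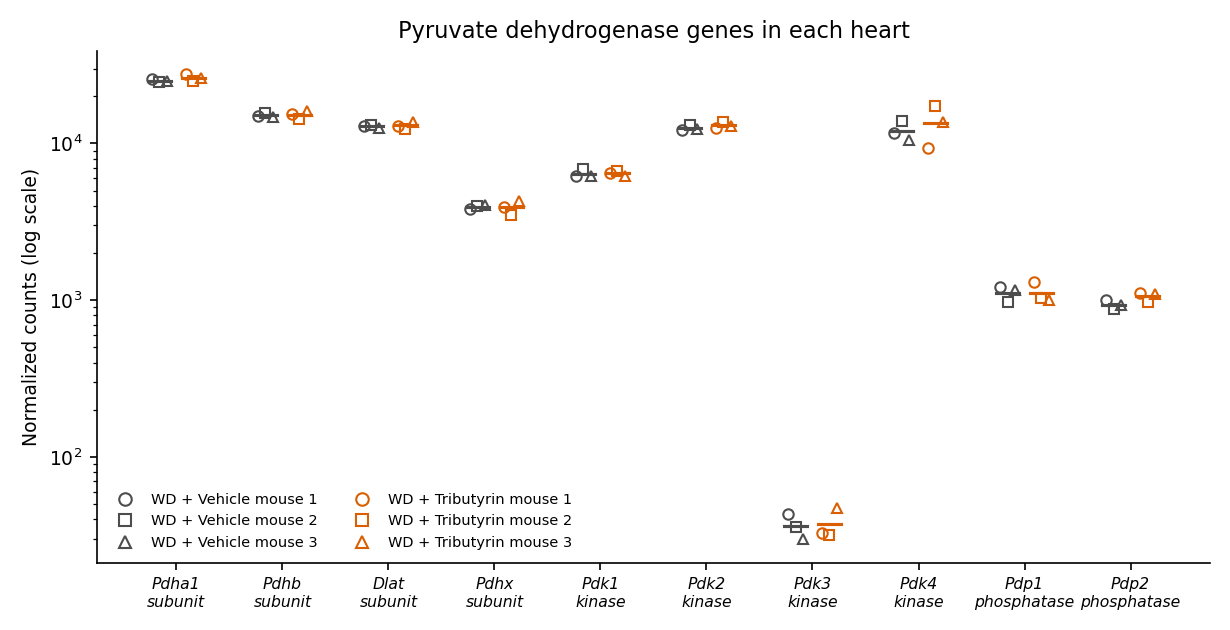
Normalized counts (log axis) of the 10 PDH genes in each of the 6 mice. Each symbol is 1 mouse and the short lines are group means (n = 3 each); Pdk4 is the abundant gene whose mice lie farthest apart, from 9350 to 17401, and Pdk3 lies far below the rest.

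The upstream sequence of Pdk4 is shown beside that of Pdk2, since these are the most abundant kinase transcripts in these hearts and the results below turn on how differently they varied. Each run is the 250 bases before the annotated start (RefSeq, GRCm38.p6), read 5′ to 3′ on the gene's own strand, with CG dinucleotides in capitals. The Pdk4 window lies on the minus strand at chr6:5496279-5496528 and the Pdk2 window on the minus strand at chr11:95041372-95041621. Gene positions elsewhere in the text follow GENCODE M21, whose Pdk4 start, at 5496309, lies inside the Pdk4 window.

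Pdk4: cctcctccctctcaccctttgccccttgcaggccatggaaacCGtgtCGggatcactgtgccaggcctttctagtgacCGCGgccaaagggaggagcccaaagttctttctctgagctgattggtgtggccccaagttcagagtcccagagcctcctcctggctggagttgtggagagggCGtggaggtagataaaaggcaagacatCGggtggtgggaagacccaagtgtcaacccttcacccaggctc

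Pdk2: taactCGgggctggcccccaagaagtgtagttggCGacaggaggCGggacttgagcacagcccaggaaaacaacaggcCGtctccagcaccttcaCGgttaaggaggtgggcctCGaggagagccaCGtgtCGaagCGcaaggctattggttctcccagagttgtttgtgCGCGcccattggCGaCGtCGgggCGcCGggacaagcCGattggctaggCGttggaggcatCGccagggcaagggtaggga

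The Pdk4 window held 6 CG dinucleotides, the median of 32851 such windows across the genome, and the Pdk2 window held 19. Pdk1 and Pdk2 each have 2 such windows, of which 1 was used. A link between CG content and the spread between mice was not tested. The other 8 PDH genes with a window, Pdk2 among them, held 11 to 29, so every one of them was richer in CG than Pdk4. GC content was 58.8% for Pdk4 and 62.4% for Pdk2, beside a median of 52.4%. Pdp1 was not matched. A search on both strands for AGGTCA (nuclear receptor core motif), GTAAACA (forkhead motif) and AGAACA (glucocorticoid receptor core motif) found 0 matches in the 9 windows, where 14.0%, 3.17% and 16.1% of all windows hold them. These letters alone were searched, and only in these 250 bases.

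Among the subunits, Pdha1 and Pdhb code for the alpha and beta chains of E1, the decarboxylase that binds thiamine pyrophosphate. Pdha1 (ENSMUSG00000031299, chrX:160122209-160138413, minus strand, GRCm38) had 25563, 24553 and 24954 normalized counts in the vehicle treated mice and 27696, 24984 and 25966 in the Tributyrin treated mice. Tributyrin mouse 1 was the highest and vehicle mouse 2 the lowest, and the groups overlapped. The means were 25024 ± 508 and 26216 ± 1373 (SD, n = 3 each), with a log2 fold change of 0.07 (SE 0.068, 95% interval −0.08 to 0.22, edgeR adjusted p 0.999). Pdha1 shares 603 exonic bases with Map3k15 on the opposite strand, which was given 12 to 34 counts per library.

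Pdhb (ENSMUSG00000021748, chr14:8165996-8173025, minus strand) had 14959, 15716 and 14830 normalized counts with vehicle and 15289, 14275 and 15984 with Tributyrin. The lowest and the highest value were both in the Tributyrin group, with all vehicle mice between them. The means, 15168 ± 479 and 15183 ± 859 (SD, n = 3 each), differed by a log2 fold change of 0.00 (SE 0.070, 95% interval −0.15 to 0.16).

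Dlat codes for E2, the core acetyltransferase that carries the lipoyl arms of the complex. Dlat (ENSMUSG00000000168, chr9:50634633-50659780, minus strand) had 12874, 13191 and 12528 normalized counts with vehicle and 12992, 12412 and 13746 with Tributyrin. As for Pdhb, the Tributyrin group held both extremes. The means were 12864 ± 332 and 13050 ± 669 (SD, n = 3 each), and the log2 fold change was 0.02 (SE 0.068, 95% interval −0.13 to 0.17).

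Pdhx codes for the E3-binding protein, which anchors dihydrolipoamide dehydrogenase to the E2 core. Pdhx (ENSMUSG00000010914, chr2:103021075-103073513, minus strand) had 3805, 4007 and 4039 normalized counts with vehicle and 3920, 3519 and 4310 with Tributyrin. Tributyrin mouse 2 was the lowest and Tributyrin mouse 3 the highest, the same pair that marked the extremes of Pdhb and Dlat. The means were 3951 ± 127 and 3916 ± 396 (SD, n = 3 each) and the log2 fold change was −0.01 (SE 0.082, 95% interval −0.19 to 0.17).

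The ratios between subunit transcripts were measured within each heart. Per exonic length (RPKM, scaled with the TMM library sizes), the Pdhb level was 1.46 to 1.51 times the Dlat level across the 6 mice. Pdha1 was 1.62 to 1.87 times Pdhb, and Dlat was 2.49 to 2.84 times Pdhx. The groups overlapped in each of these ratios. The ratio of Pdha1 to Pdhb spread no less than either gene alone, whose highest mouse was 1.128 times (Pdha1) and 1.12 times (Pdhb) the lowest. Pdhb, Dlat and Pdha1 also varied little between mice of 1 group, with a within-group SD of 0.0632, 0.0552 and 0.0564 log2 CPM. The median of 7982 genes with a mean of at least 10 CPM was 0.108, and 10.4% of those genes had a smaller SD than Dlat. The genes compared were not matched for level, and Dlat, the lowest of the subunits just named, had at least 10084 counts per library. Pdhx, at 0.106, was close to that median.

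Of the kinases, Pdk4 was examined first. Pdk4 (ENSMUSG00000019577, chr6:5483351-5496309, minus strand) had 11664, 13932 and 10499 normalized counts in the vehicle treated mice and 9350, 17401 and 13778 in the Tributyrin treated mice. Tributyrin mouse 1 was the lowest of the 6 and Tributyrin mouse 2 the highest, so the treated group enclosed all the vehicle values. The highest Tributyrin value was 1.86 times the lowest, against 1.33 times within the vehicle group.

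The Pdk4 means were 12032 ± 1746 with vehicle and 13510 ± 4032 with Tributyrin (SD, n = 3 each), a difference of 1478 normalized counts or 12.3%. This is smaller than the SD of either group. The exact two-sided permutation test gave p = 0.7, where the smallest p possible with 3 mice against 3 is 0.1. The log2 fold change was 0.17 (SE 0.187, edgeR adjusted p 0.999), and its 95% interval, a fold of 0.842 to 1.499, spans both a fall and a rise.

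The sign of the Pdk4 difference depended on Tributyrin mouse 2, without which the log2 fold change was −0.06. Its size depended on Tributyrin mouse 1, without which it was 0.38 (unadjusted edgeR p 0.0144), and without Tributyrin mouse 3 it was 0.16. Leaving out vehicle mouse 1 or 2, the libraries rich in Sln, Myl4, Myl7 and Mybphl, gave 0.15 and 0.29, and leaving out vehicle mouse 3 gave 0.08. With the mean level of these atrial markers as a covariate, added after the data were seen, the Pdk4 log2 fold change was 0.29 (unadjusted edgeR p 0.172).

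**Figure D2:**
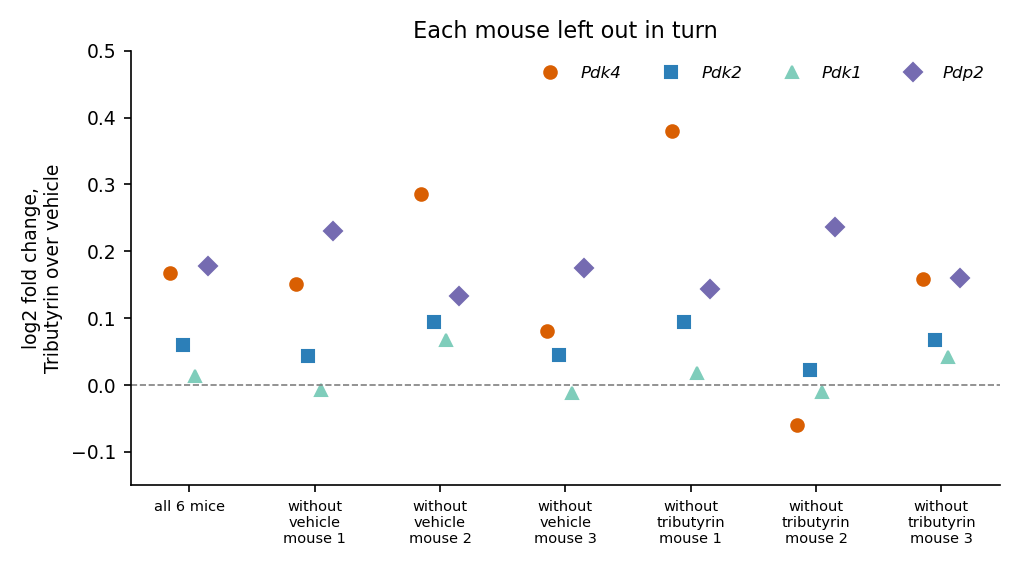
Log2 fold change (Tributyrin over vehicle, edgeR with TMM scaling) of 3 kinase genes and Pdp2 with all 6 mice and after dropping each mouse; the dashed line is no difference. Pdk4 moves between −0.06 and 0.38, while Pdk2 stays between 0.02 and 0.09 and Pdp2 between 0.13 and 0.24.

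Erythroid transcripts ran in nearly the opposite order to Pdk4 across the hearts. The summed level of 5 markers (Hba-a1, Hba-a2, Hbb-bs, Hbb-bt and Alas2) was 545, 508 and 723 CPM with vehicle and 923, 383 and 474 CPM with Tributyrin. All 5 were highest in Tributyrin mouse 1, where Pdk4 was lowest, and lowest in Tributyrin mouse 2, where Pdk4 was highest. The summed level of the 12 glucocorticoid-induced genes was 777, 921 and 1024 CPM with vehicle and 693, 902 and 979 CPM with Tributyrin. This sum was also lowest in Tributyrin mouse 1, but it was highest in vehicle mouse 3 and not in Tributyrin mouse 2. Both lists were singled out after their values were seen, and their part in the Pdk4 spread was not tested. Of 7 adipocyte markers, 6 were too low to be tested, with Adipoq at 0 to 16 counts, Plin1 at 3 to 39 and Ucp1 at 0. The other was Fabp4, which capillary endothelium also expresses, at 6309 to 10583 counts. Its log2 fold change was 0.28 (unadjusted edgeR p 0.0182, adjusted p 0.999). In the higher direction, 1.97% of all genes tested had an unadjusted p under 0.05. The Tributyrin values of Fabp4 lay above the vehicle values without overlap, where 4.26% of all genes did so.

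Pdk2, the most widely expressed PDH kinase gene, behaved more evenly. Pdk2 (ENSMUSG00000038967, chr11:95026258-95041354, minus strand) had 12181, 13159 and 12271 normalized counts with vehicle and 12497, 13675 and 12988 with Tributyrin. Tributyrin mouse 2 was again the highest, yet the groups overlapped. The means were 12537 ± 540 and 13054 ± 592 (SD, n = 3 each), with a log2 fold change of 0.06 (SE 0.070, 95% interval −0.10 to 0.21).

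Pdk1 codes for the kinase known as a target of hypoxia-inducible factor. Pdk1 (ENSMUSG00000006494, chr2:71873224-71903858, plus strand) had 6158, 6861 and 6153 normalized counts with vehicle and 6458, 6654 and 6237 with Tributyrin. Vehicle mice held both the lowest and the highest value. The means were 6391 ± 407 and 6449 ± 208 (SD, n = 3 each) and the log2 fold change was 0.01 (SE 0.072, 95% interval −0.15 to 0.17).

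Pdk3 was barely expressed in these hearts, with 24 to 46 counts per library. Pdk3 (ENSMUSG00000035232, chrX:93764607-93832201, minus strand) had 43.7, 35.7 and 29.8 normalized counts with vehicle and 32.7, 31.98 and 47.0 with Tributyrin. The groups overlapped throughout, and counting error alone gives an SD of up to 20.4% of such a value. The means were 36.4 ± 6.95 and 37.2 ± 8.48 (SD, n = 3 each). The 95% interval of the log2 fold change, −0.58 to 0.62 around 0.02, is the widest of the 10 genes, so sizeable differences in either direction are compatible with these data.

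**Figure D3:**
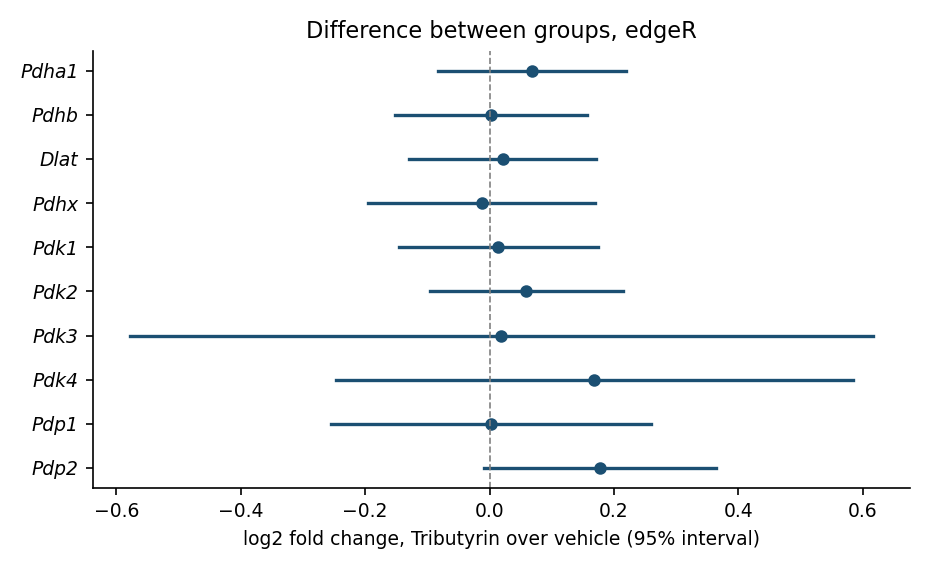
Log2 fold change of the 10 PDH genes (points) with the 95% interval from edgeR's quasi-likelihood fit (lines), Tributyrin over vehicle, n = 3 each. All 10 intervals cross 0, with Pdp2 nearest to clearing it (−0.01 to 0.36) and Pdk3 and Pdk4 the widest.

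Set side by side, Pdk4 varied far more between mice of 1 group than the other well expressed kinases. Its within-group SD was 0.352 log2 CPM, larger than that of 98.0% of the 7982 genes compared, against 0.0639 for Pdk2 and 0.0724 for Pdk1. As a share of the mean, the SD of Pdk4 was 14.5% with vehicle and 29.8% with Tributyrin, while Pdk2 had 4.31% and 4.53%. These are descriptions of 6 hearts, and no test of the spread between groups was made.

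Per exonic length, Pdk2 and Pdk4 together made up most of the kinase transcript. The Pdk4 share of the summed kinase RPKM was 41.6%, 44.0% and 39.0% with vehicle and 35.7%, 48.8% and 44.3% with Tributyrin. The Pdk2 share was 48.2%, 46.1% and 50.6% with vehicle and 53.0%, 42.6% and 46.4% with Tributyrin. Pdk4 exceeded Pdk2 in 1 heart, that of Tributyrin mouse 2, and Pdk2 led in the other hearts.

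The ratio of Pdk4 to Pdk2 per length was 0.863, 0.954 and 0.771 with vehicle and 0.674, 1.15 and 0.956 with Tributyrin, so the groups overlapped. Pdk1 made up 8.43% to 11.1% of the kinase transcript and Pdk3 0.123% to 0.214%. The kinase sum without Pdk4 stayed between 177 and 198 RPKM in all 6 hearts. With Pdk4 it spread from 284 in Tributyrin mouse 1 to 387 in Tributyrin mouse 2.

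**Figure D4:**
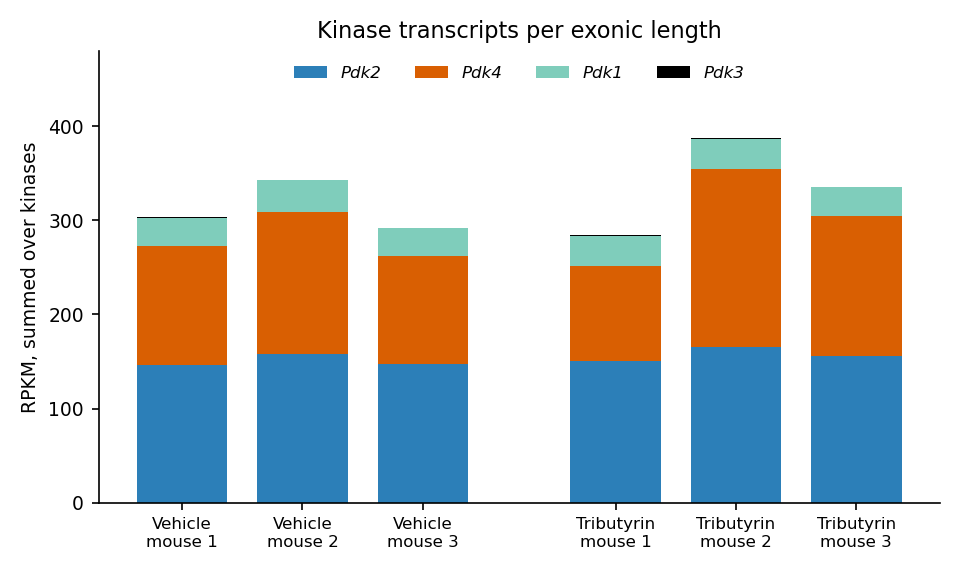
Summed level of the 4 PDH kinase transcripts in each mouse in RPKM (bars from 0, stacked by gene; Pdk3, at most 0.697, is a thin line on top or too thin to see). The Pdk2 segment is of similar height in every mouse, from 146 to 165, while the Pdk4 segment spans 101 to 189.

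Across the 6 mice, Pdk4 and Pdk2 (log2 CPM) tended to be high in the same hearts, but the relation did not pass correction. Pearson's r was 0.87 (permutation p 0.0278, 0.167 after Benjamini-Hochberg adjustment over 6 relations) and Spearman's rho was 0.77 (permutation p 0.103, adjusted 0.308). Without the 2 mice farthest from the median, r was 0.91. Against Pdk1, r was 0.50 (permutation p 0.313, adjusted 0.469) and rho 0.54 (permutation p 0.297, adjusted 0.469), and against Pdk3, r was 0.16 (permutation p 0.763, adjusted 0.803) and rho 0.14 (permutation p 0.803, adjusted 0.803). Without the 2 mice farthest from the median these r were 0.64 and 0.55.

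Among the genes whose pattern over the 6 mice was most like that of Pdk4, of 7981 searched by Pearson's r of log2 CPM, were Srp68 (r 0.994), Ccl6 (r 0.991), Dhx16 (r 0.965) and Trim54 (r 0.964). With 6 points and so many genes searched, these r are a description. The match is of the relative pattern over the mice and not of size, since Srp68 changed by 1.09-fold between its lowest and highest mouse and Ccl6 by 1.49-fold.

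The phosphatases code for the catalytic subunits that reactivate PDH, with Pdp1 known as the calcium-stimulated form and Pdp2 as the insulin-responsive form. Pdp2 (ENSMUSG00000048371, chr8:104591451-104599026, plus strand) had 996.8, 881.6 and 931.8 normalized counts with vehicle and 1115, 968.5 and 1092 with Tributyrin. Tributyrin mice 1 and 3 were above every vehicle mouse, and Tributyrin mouse 2 lay below vehicle mouse 1, which was the only overlap.

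The Pdp2 means were 936.7 ± 57.7 and 1058 ± 78.6 (SD, n = 3 each), 13.0% higher with Tributyrin. The log2 fold change was 0.18 (SE 0.084, 95% interval −0.01 to 0.36), with an unadjusted edgeR p of 0.0599 and an adjusted p of 0.999. The exact two-sided permutation test gave p = 0.2. By p it ranked 729 of the 14133 genes tested. The sign was positive in all 16 alternative analyses, with log2 fold changes from 0.10 to 0.24 and a lowest adjusted p of 0.424, which was reached without Tributyrin mouse 2.

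Pdp1 (ENSMUSG00000049225, chr4:11958184-11966452, minus strand) had 1206, 977.0 and 1163 normalized counts with vehicle and 1304, 1031 and 1008 with Tributyrin. Mouse 1 was the highest of each group, and the groups overlapped throughout. The means, 1115 ± 122 and 1114 ± 164 (SD, n = 3 each), gave a log2 fold change of 0.00 (SE 0.116, 95% interval −0.26 to 0.26). After Pdk4, Pdp1 was the most variable of the PDH genes above 10 CPM, with a within-group SD of 0.186 log2 CPM, larger than that of 85.7% of the genes compared.

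Ordered by level per length (mean RPKM over the 6 mice), Pdha1 came first at 261, followed by Pdk2 at 154, Pdhb at 149.5, Pdk4 at 138 and Dlat at 101. Pdhx (38.1), Pdk1 (31.4), Pdp1 (9.41), Pdp2 (6.67) and Pdk3 (0.547) followed. The ranges over mice of Pdk2 and Pdhb, of Pdhb and Pdk4, and of Pdk4 and Dlat overlapped, although Pdk4 was above Dlat within every heart. All other neighbours in the order had ranges that did not meet.

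Kinase transcripts outweighed phosphatase transcripts in every heart. The ratio of the summed RPKM of the 4 kinases to that of the 2 phosphatases was 18.0, 24.3 and 18.2 with vehicle and 15.4, 25.4 and 21.3 with Tributyrin. The means, 20.2 ± 3.56 and 20.7 ± 5.06 (SD, n = 3 each), differed by less than the SD of either group. The lowest ratio was in Tributyrin mouse 1 and the highest in Tributyrin mouse 2, the same mice that marked the extremes of Pdk4.

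Genes around PDH were read from further lists. Counts above 0 are given with TMM, where 49.6% of all genes tested were above 0, and with library size alone, where 27.5% were. Dld, the E3 subunit shared with the sister dehydrogenases, had a log2 fold change of 0.05, and Pdpr, the regulatory partner of the phosphatase, of −0.09. Pdha2, the testis form of the alpha chain, was at 0 counts in every library. Of 8 genes for making and attaching lipoate, the cofactor on Dlat and Pdhx, 6 had log2 fold changes above 0 (3 with library size alone), with a median of 0.05 and none with an unadjusted p under 0.05. Of 3 tested genes for thiamine uptake and activation, 2 were above 0 (0 with library size alone) and none had such a p.

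Of 15 genes that handle pyruvate and lactate, 11 had log2 fold changes above 0 (9 with library size alone), with a median of 0.09 and none with an unadjusted p under 0.05. The mitochondrial pyruvate carrier subunits Mpc1 and Mpc2 are among them, and the groups overlapped for both. For 2 of the 15, Ldha and Ldhb, the lactate dehydrogenase genes, the Tributyrin values lay above the vehicle values without overlap, where 4.26% of all genes did so. Ldhb had 30065, 29155 and 27153 normalized counts with vehicle and 31842, 31011 and 32437 with Tributyrin. Of 7 genes of acetyl-CoA and related metabolism, 6 were above 0 (4 with library size alone), with a median of 0.10 and none with such a p.

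Of 9 genes of the sister 2-oxoacid dehydrogenases, 8 were above 0 (6 with library size alone), with a median of 0.10. Among them, 2 had an unadjusted edgeR p under 0.05, where 1.97% of all genes did in the higher direction. These were Ppm1k, the phosphatase of the branched-chain complex (log2 fold change 0.29), and Ogdhl (0.17). For both, the Tributyrin values lay above the vehicle values without overlap, where 4.26% of all genes did so. Neither passed the FDR of 10% with edgeR or with DESeq2 as run here. The study's own DESeq2 analysis reported Ppm1k as raised with Tributyrin at an FDR of 10%, and it found more of the encoded protein.

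Lists of genes that share known regulators with Pdk4 were set beside it. Of 19 tested targets of PPAR alpha, the fatty acid receptor, 16 were above 0 (15 with library size alone), with a median log2 fold change of 0.12. Acot1 (0.46) and Acadl (0.16) were among those with an unadjusted edgeR p under 0.05, where 1.97% of all genes were in the higher direction, and none of the 19 passed the FDR of 10%. Of 12 glucocorticoid-induced genes, 7 were above 0 (4 with library size alone), with a median of 0.03 and none with such a p.

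Of 14 upstream regulators of Pdk4, 8 were above 0 (5 with library size alone), with a median of 0.02. Foxo1, a forkhead factor known to drive Pdk4, was the only one of them with an unadjusted edgeR p under 0.05, at a log2 fold change of −0.23, where 2.28% of all genes had such a p in the lower direction. Of 13 tested targets of hypoxia-inducible factor, 8 were above 0 (6 with library size alone), with a median of 0.07. Egln3 was the only one with such a p, at 0.47, where 1.97% of all genes had one in the higher direction, and it was also among the 11 genes that DESeq2 called.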

How the data were processed

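Ventricle RNA of 3 WD + Vehicle and 3 WD + Tributyrin mice was sequenced by the authors (stranded mRNA kit, single-end reads). The deposited values are whole-number read counts per Ensembl gene, not normalized. Per the submitters' processing notes the build was mm10 and the tools were cutadapt 1.13, STAR, HTSeq 0.6.1p1 and DESeq2 1.14.1. The sources used here do not give the annotation release or the counting's strand setting, so reads of overlapping antisense genes cannot be assigned with certainty. Dose and schedule come from the study's methods. Where nothing says more, each library is taken as 1 mouse, and p-values measure only the spread between these libraries.

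Of 54232 identifiers, 54165 matched GENCODE M21 (GRCm38), and 0 lines named no gene. No pair of libraries agreed within sampling noise (chi-square per degree of freedom 6.67 to 28.2 over 15 pairs). Groups were compared with edgeR 4.0.16 (quasi-likelihood test, TMM scaling, filterByExpr with minimum count 10 and minimum total 15, no covariate) in R 4.3.3, with Benjamini-Hochberg adjustment over 14133 genes and an FDR of 10%. Normalized counts are counts divided by DESeq2 size factors. RPKM used the union exonic length in GENCODE M21. DESeq2 1.42.0 and limma 3.58.1 were alternatives, beside other scalings and filters, each mouse left out, and a replicate block. Scripts were tested on simulated data. Python 3.11.15 with numpy 2.4.6, pandas 2.3.3, scipy 1.17.1 and matplotlib 3.10.9 did the rest.

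The PDH genes and the lists were chosen with earlier results of these data known. Named genes are the 10 PDH genes, list genes with an unadjusted p under 0.05, genes most like Pdk4, and a few others named after their values were seen (Pdpr, Dld, Ldha, Ldhb and markers). Some genes that this rule names are not reported here. Counts with a value of 24 to 46, as for Pdk3, carry large counting error, and intervals cover the spread between libraries.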

Additional observations from a re-analysis of the deposited data

How the results depend on the processing

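In all 159 recomputed log2 fold changes of the 10 PDH genes, 0 passed an FDR of 10%, 5 had an unadjusted p under 0.05 and 27 had the other sign. With library size alone the sign turned for Pdha1 (−0.0045), Pdhb (−0.0723), Dlat (−0.0526), Pdk1 (−0.0583), Pdk2 (−0.0133), Pdk3 (−0.0537) and Pdp1 (−0.0680), as that scaling moves the median gene to −0.07. It also split the genes with an unadjusted p under 0.05 into 100 higher and 698 lower, against 278 and 322 with TMM. With a mean of at least 5 CPM, Pdhb was −0.0022 and Pdp1 −0.0020, and Pdk3 was left out. Pdk3 was −0.0019 with limma-voom, and Pdp1 was −0.0296 with the atrial covariate. Leaving out each mouse in turn gave ranges of −0.0316 to 0.0430 for Pdhb, −0.0127 to 0.0546 for Dlat, −0.0814 to 0.0577 for Pdhx, −0.0112 to 0.0675 for Pdk1, −0.168 to 0.170 for Pdk3, −0.0591 to 0.380 for Pdk4 and −0.121 to 0.0733 for Pdp1. The Pdk4 difference ranged from −468 to 3558 normalized counts. Other settings gave Pdk4 log2 fold changes of 0.10 to 0.29, with an unadjusted edgeR p of 0.0423 without the low-count filter. The cause of these shifts was not tested.

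The number of genes past an FDR of 10%, 0 with edgeR, was 167 without the low-count filter (64 higher, 103 lower), 11 with DESeq2 and 0 to 3 with a mouse left out, and no PDH gene was among them. Genes with an unadjusted p under 0.05 numbered 600, against 1178 without the filter, 367 with a mean of at least 5 CPM, 389 without vehicle mouse 3 and 1360 without Tributyrin mouse 2, the limits over the mice left out.

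The replicate numbers are shared by the groups, and the labels do not say whether same-numbered mice were paired. Deviations from the group means had r of 0.21, 0.04 and 0.01 between same-numbered mice. Between mice of different numbers r was −0.19 to 0.15. With 3 mice a group, these r cannot decide whether the mice were paired. With a replicate block, 2 genes passed an FDR of 10% (Trim72 and Ankrd1, named after their values were seen), Pdk4 had a log2 fold change of 0.13, Pdp2 of 0.18 (unadjusted edgeR p 0.0458) and Pdp1 of −0.0019. With 3 mice a group, the intervals given are the ranges of differences compatible with these data, and they are not limits of detection.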
